A study of Mus musculus with 3 samples.

Results

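The colony-stimulating factor (CSF) ligands and receptors were followed across the cells of injured mouse muscle. The set held 10 genes, taken by their symbols in the gene column of the count tables: the ligands Csf1, Il34, Csf2 and Csf3 and the receptor genes Csf1r, Csf2ra, Csf2rb, Csf2rb2, Csf3r and Flt3. They were 10 of 32285 features, and all 10 had at least 1 unique molecular identifier (UMI, a counted RNA molecule) in the kept cells of each library. The study asked how old muscle regenerates and whether recombinant meteorin-like protein (rMETRNL) changes that. All 3 groups were C57/BL6J mice whose tibialis anterior muscle had been injured with barium chloride (BaCl2) and was collected 4 days later. Young PBS mice (3 to 4 months old) and old PBS mice (24 to 26 months old) received PBS, and old rMETRNL mice (24 to 26 months old) received rMETRNL, in 3 intramuscular injections of 0.1 ug or 0.1 ng each (the unit differs between parts of the study's text). Each group was 1 library made from a pool of 3 muscle samples, so the groups had no replicates and could not be tested against each other, and the exact 95% intervals below cover counting error only. The age ratio divides the old PBS level by the young PBS level, and the treatment ratio divides the old rMETRNL level by that of old PBS. Both ratios rest on the same old PBS library. Where 3 values follow each other with no library named, they are young PBS, old PBS and old rMETRNL in that order.

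The CSFs are secreted proteins that carry cells of the myeloid lineage through survival, division and maturation. CSF1 and IL-34 both bind CSF1R, the receptor tyrosine kinase that macrophages need to survive. GM-CSF, the product of Csf2, binds an alpha chain of its own (Csf2ra) that pairs with the beta chain Csf2rb, which the IL-3 and IL-5 receptors also use, while Csf2rb2 encodes the second, IL-3 specific beta chain of mice. G-CSF, the product of Csf3, binds CSF3R on neutrophils and their precursors, and FLT3, a receptor tyrosine kinase related to CSF1R, binds Flt3 ligand and is known for its role in dendritic cell development. In injured muscle, monocytes enter from the blood and become macrophages beside fibro/adipogenic progenitors (FAPs), the Pdgfra expressing stromal cells.

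The promoters of 3 receptor genes are shown because they hold the core letters read by PU.1 (encoded by Spi1), the master regulator of the myeloid lineage, and because these genes were measured mainly in myeloid cells. Each line is the 250 bases before the annotated start (RefSeq, build GRCm38.p6), written 5′ to 3′ on the strand of the gene, and capitals mark GAGGAA or its reverse complement. The windows are chr19:61228419-61228668 (minus strand) for Csf2ra, chr15:78305722-78305971 (minus strand) for Csf2rb2 and chr4:126024409-126024658 (plus strand) for Csf3r.
Csf2ra: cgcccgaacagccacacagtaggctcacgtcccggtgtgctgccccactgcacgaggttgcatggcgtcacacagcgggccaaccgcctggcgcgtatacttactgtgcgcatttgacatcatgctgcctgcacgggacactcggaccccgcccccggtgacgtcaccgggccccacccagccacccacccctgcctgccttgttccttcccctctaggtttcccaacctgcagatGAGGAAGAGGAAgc
Csf2rb2: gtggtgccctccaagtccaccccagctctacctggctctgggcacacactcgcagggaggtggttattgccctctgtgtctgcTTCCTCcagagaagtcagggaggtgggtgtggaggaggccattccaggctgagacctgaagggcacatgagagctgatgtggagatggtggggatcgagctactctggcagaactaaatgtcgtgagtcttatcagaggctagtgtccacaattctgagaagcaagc
Csf3r: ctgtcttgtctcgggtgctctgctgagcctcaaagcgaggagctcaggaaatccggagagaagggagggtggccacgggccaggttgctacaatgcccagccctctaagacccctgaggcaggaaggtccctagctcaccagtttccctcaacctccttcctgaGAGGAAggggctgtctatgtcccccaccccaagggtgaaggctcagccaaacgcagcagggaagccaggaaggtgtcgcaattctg
The Csf2ra window held 2 matches, which began 14 and 8 bases before the start, the Csf2rb2 window held 1 at 167 bases before it and the Csf3r window 1 at 86 bases before it. Searched on both strands, the windows of Csf1, Csf2 and Flt3 held no match, and 23.3% of 32851 promoters of the same length held at least 1. The 9-letter STAT motif (TTC and GAA with 3 free letters between them) had 1 match in the Csf2rb2 window, 15 bases before the start, none in the other 5 and at least 1 in 7.02% of all promoters. Of the 10 genes, 6 were in the promoter table, and Csf1r, Il34, Csf2rb and Csf3 were not. These matches are descriptions of letters and were not tested as binding sites. The gene positions given next are those of GENCODE, whose starts of Csf2ra and Csf3r lie upstream of the RefSeq ones, so the 3 matches of these windows fall at or inside the GENCODE genes.

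On build mm10 (GENCODE annotation), Csf2rb (chr15:78325752-78353847, plus strand) and Csf2rb2 (chr15:78282507-78305721, minus strand) lie 20030 bases apart. Of the 50-base stretches in their transcripts, 892 were shared, 12.3% of those of Csf2rb and 18.4% of those of Csf2rb2. In the last 500 bases, where 3′ libraries mostly read, the shared part was 13.4% and 2.33%. Reads that lie wholly in a shared stretch cannot be told apart, and counting of this kind leaves them out, while reads that differ little could have been given to either gene, so the levels of both and part of their common pattern are uncertain. The other genes whose positions were taken lie apart: Csf1 at chr3:107741048-107760469, Il34 at chr8:110741829-110805924, Csf2 at chr11:54247271-54249667, Csf3 at chr11:98701263-98703629, Csf2ra at chr19:61223957-61228429, Csf3r at chr4:126024550-126044440 and Flt3 at chr5:147330741-147400489. No position was taken for Csf1r.

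After filtering, 10318, 10019 and 11468 cells remained in young PBS, old PBS and old rMETRNL, with a median of 15100.5, 13698 and 14507 UMIs a cell. Clusters were named from markers and gave 9 classes with at least 100 cells in each library, written here as X-like cells. A level is given in CPM, the UMIs of a gene in a class scaled to the same total of UMIs in every class and library. Libraries shared 58 to 80 cell barcodes in each pair, or 0.477% to 0.657% of the first library of the pair. The myocyte-like class differed most in kind, since its median depth was 38211 UMIs in the young PBS library, 2402 in the old PBS library and 6127 in the old rMETRNL library. Free RNA was gauged with 8 macrophage genes such as C1qa and Lyz2, whose median level in FAP-like cells was 0.685%, 0.835% and 0.801% of that in macrophage/monocyte-like cells in the 3 libraries in that order, and in endothelial-like cells 1.01%, 1.71% and 1.38%.

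The ligands came mostly from non-immune cells and the receptors from myeloid cells. FAP-like cells, 13.7% to 15.9% of cells, held 71.8% of Csf1 UMIs in the young PBS library, 73.9% in the old PBS library and 73.0% in the old rMETRNL library. They also held 66.7%, 71.8% and 70.3% of Il34 UMIs. Endothelial-like cells held 69.0%, 67.9% and 59.8% of the UMIs of Csf3 (1806, 2069 and 1463), and macrophage/monocyte-like cells held 692, 673 and 732 of them. Macrophage/monocyte-like cells held 93.3%, 89.2% and 91.2% of Csf1r and 89.7%, 87.8% and 88.5% of Csf3r, and for Csf2ra, Csf2rb and Csf2rb2 their part lay between 66.9% and 81.4%. Flt3 was split between dendritic-like cells, with 53.4%, 62.6% and 52.8%, and macrophage/monocyte-like cells, with 41.4%, 29.98% and 43.4%. Of the latter, 230 of 370, 63 of 179 and 187 of 331 UMIs were in a sub-cluster led by Cd209a and Klrd1, which are also among the leading genes of the largest dendritic-like cluster, so the split depends on how those cells are named.

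**Figure D1:**
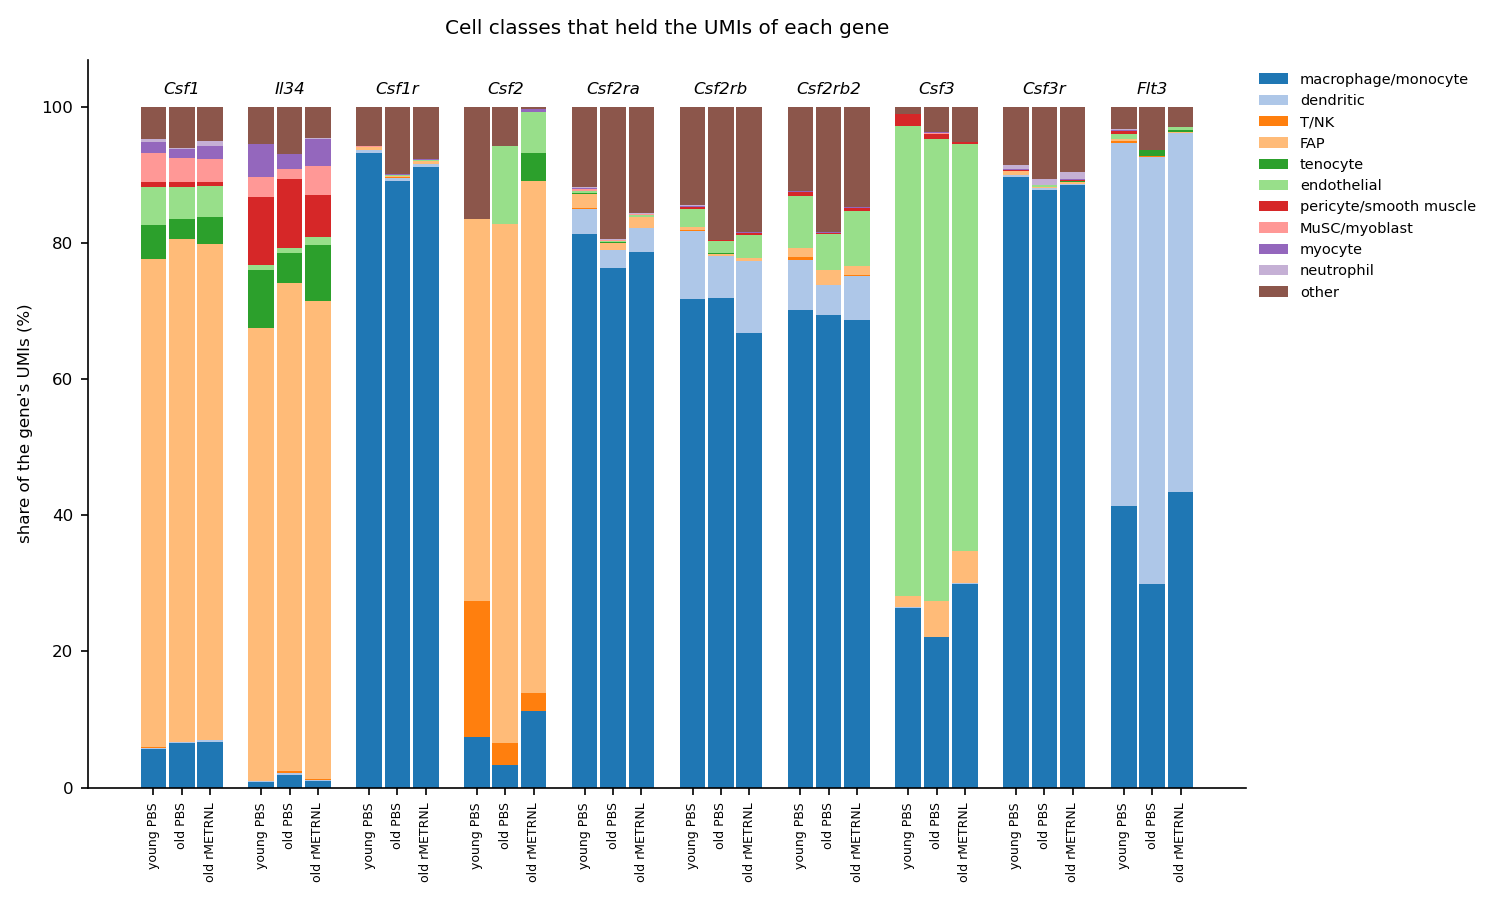
Share of each gene's UMIs (percent, vertical axis) that each cell class held, with 1 stacked bar for each library; "other" gathers the small classes and the sub-clusters that were given no class. The bars of Csf1 and Il34 are mostly FAP-like (66.7% to 73.9%), that of Csf3 mostly endothelial-like (59.8% to 69.0%) and those of Csf1r and Csf3r almost wholly macrophage/monocyte-like (87.8% to 93.3%).

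Of the 9 classes, FAP-like cells had the highest Csf1 level in all 3 libraries. Its level there was 216 CPM (interval 212 to 220) in the young PBS library, 259 (253 to 265) in the old PBS library and 294 (289 to 299) in the old rMETRNL library, so the 3 intervals did not overlap. Tenocyte-like cells followed with 156, 168.5 and 181. The order below them differed between libraries. Endothelial-like cells had 85.8, 86.1 and 84.0, whose intervals overlapped between libraries, and MuSC/myoblast-like cells, the muscle stem cells and their progeny, had 70.5, 118 and 78.3, so in old PBS they stood above endothelial-like cells. Pericyte/smooth muscle-like cells were at 57.8, 77.2 and 85.0, and myocyte-like cells at 32.7, 31.0 and 54.4. In the old PBS library the intervals of the endothelial-like and pericyte/smooth muscle-like levels overlapped (78.6 to 94.1 against 61.7 to 95.5), so those neighbours were not ordered. Macrophage/monocyte-like cells had only 8.19, 7.87 and 11.6 CPM, and dendritic-like and T/NK-like cells had at most 29 UMIs of Csf1 in any library. In FAP-like cells the gene was broad, for 1512 of 1643 young PBS cells, 1176 of 1368 old PBS cells and 1553 of 1708 old rMETRNL cells held at least 1 UMI, and the top 5 cells held at most 3.03% of UMIs. With each cell thinned to 2000 UMIs, 32.0%, 33.2% and 37.3% of FAP-like cells had a Csf1 UMI, against 92.0%, 86.0% and 90.9% without thinning. T/NK-like cells served as the low class, with a median depth of 5815, 5983 and 5080 UMIs, and held 20, 6 and 9 Csf1 UMIs in all.

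A small neutrophil-like class of 10, 16 and 30 cells held 58, 27 and 129 Csf1 UMIs, or 2651, 691 and 1817 CPM. The median depth of these cells was 2158, 2387.5 and 2181 UMIs, and the class was too small to be counted with the 9 others. Csf1 had a UMI in 9 of the 10, 11 of the 16 and 23 of the 30 cells.

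Il34, the other CSF1R ligand, stood highest of the 9 classes in pericyte/smooth muscle-like cells, at 61.8 CPM (50.7 to 74.7) in the young PBS library, 61.8 (48.0 to 78.3) in the old PBS library and 45.4 (34.2 to 59.1) in the old rMETRNL library. Those 3 intervals overlapped. Tenocyte-like cells had 21.4, 16.1 and 18.8 and FAP-like cells 16.0, 16.2 and 14.2, and these neighbours overlapped in old PBS (10.9 to 23.0 against 14.8 to 17.7). FAP-like cells held most Il34 UMIs although their level was below that of pericyte/smooth muscle-like cells. They numbered 1643, 1368 and 1708 cells, against 115, 138 and 122. Macrophage/monocyte-like cells were near 0, with 9, 12 and 8 UMIs.

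Csf2 was rare. All kept cells together held 285 UMIs in the young PBS library, 122 in the old PBS library and 295 in the old rMETRNL library. FAP-like cells had 160, 93 and 222 of these, at 3.55, 3.09 and 5.02 CPM. The UMIs sat in few cells, since 10, 21 and 25 FAP-like cells held at least 1 and the top 5 cells held 94.4%, 71.0% and 64.4%. In T/NK-like cells the counts were 57, 4 and 8 UMIs. Of the 57 in young PBS, 30 were in 1 cell and 50 in a sub-cluster led by Il5 and Cd163l1. Dendritic-like, MuSC/myoblast-like and pericyte/smooth muscle-like cells held none in any library. For the MuSC/myoblast-like class a count of 0 allows up to 0.363 CPM in the young PBS library, 0.945 in the old PBS library and 0.396 in the old rMETRNL library (3 counts over the class total).

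Within FAP-like cells, Csf2 was found mainly in 3 of the 10 sub-clusters with a name. The sub-cluster led by Ptx3 and Chl1 had 15.1, 5.21 and 13.3 CPM. The one led by Dmkn and Pi16 had 0, 3.64 and 11.3, and the one led by Il11 and Slc16a3 had 2.18, 6.06 and 6.80. The Ptx3 and Chl1 sub-cluster held 116 of the 160 UMIs in young PBS and 108 of the 222 in old rMETRNL, and the Dmkn and Pi16 sub-cluster held 0 and 63 of them. A further sub-cluster led by the antigen presentation genes Cd74 and H2-Aa, which was given no class, held 44, 7 and 0.

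Csf3 was an endothelial gene in these libraries. Endothelial-like cells had 207 CPM (198 to 217) in the young PBS library, 369 (353 to 385) in the old PBS library and 151 (143 to 159) in the old rMETRNL library, so old PBS stood highest and old rMETRNL lowest. Almost all of it lay in the sub-cluster led by Selp, Ackr1 and Sele, genes of the venular endothelium, which held 1702 of 1806, 1981 of 2069 and 1337 of 1463 UMIs. Its level was 901, 1597 and 672 CPM in 147, 106 and 158 cells. Young PBS and old PBS changed places when each cell counted equally: the mean of per-cell levels over the class gave an age ratio of 0.899 where the summed UMIs gave 1.78, and the treatment ratio was then 0.735 instead of 0.409. The share of endothelial-like cells with a Csf3 UMI was 12.4%, 11.4% and 10.6% after thinning and 17.6%, 13.6% and 14.98% without it, and MuSC/myoblast-like cells, at median depths of 26558, 24233.5 and 24460 UMIs, held 0, 5 and 1 UMIs. By summed UMIs old PBS thus had the highest Csf3 level, but not the largest share of Csf3 positive cells. The top 5 cells held 27.3% to 29.6% of the UMIs.

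Macrophage/monocyte-like cells had Csf3 at a low level that hardly moved, 7.35, 7.73 and 7.03 CPM with overlapping intervals. Here also the UMIs were not spread evenly. The sub-cluster led by Ednrb and Cd163 had 33.6, 28.4 and 26.8 and the one led by Vcam1 and Il10 had 20.1, 17.7 and 27.6, while the other 8 with a name were at 3.43 or below. FAP-like cells had 43, 159 and 115 Csf3 UMIs, in 17, 27 and 20 cells, with 72.1%, 83.0% and 73.0% in the top 5 cells. In old PBS the Ptx3 and Chl1 sub-cluster held 139 of the 159, and in old rMETRNL the sub-cluster led by Ifit1 and Cxcl10 held 49 of the 115.

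**Figure D2:**
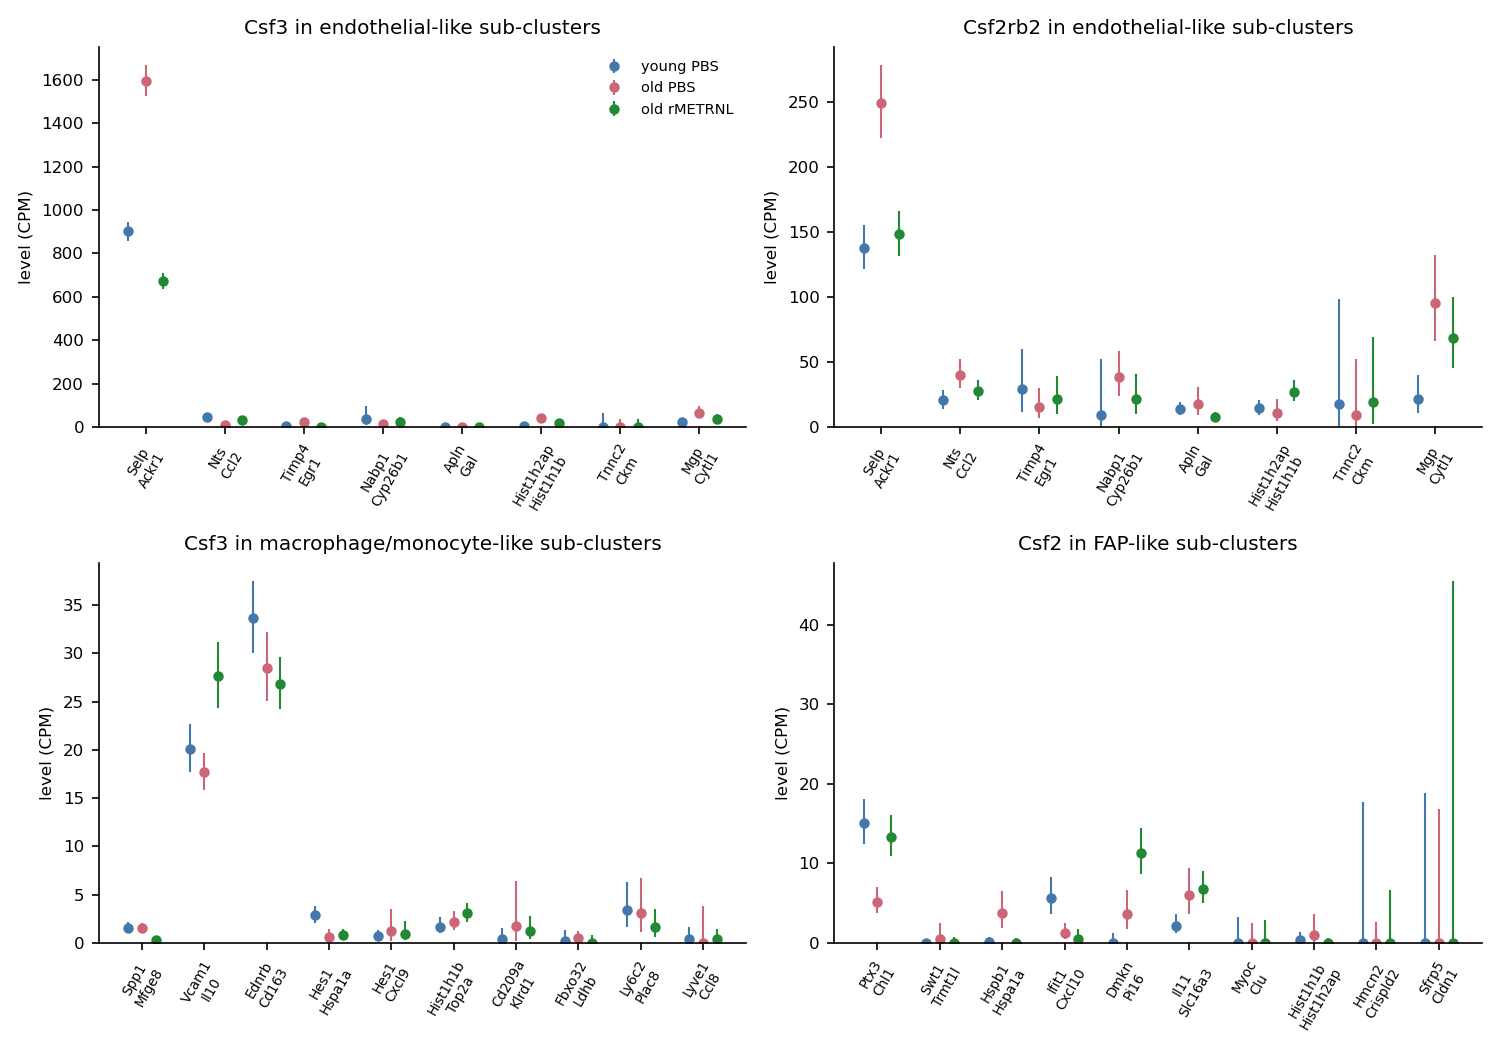
Levels (CPM, vertical axis) of Csf3 and Csf2rb2 in the endothelial-like sub-clusters, of Csf3 in the macrophage/monocyte-like ones and of Csf2 in the FAP-like ones, each named by its leading genes (horizontal axis), with 1 point for each library and exact 95% counting intervals. The Csf3 points of the endothelial sub-cluster led by Selp and Ackr1 (901, 1597 and 672) are far above those of the others, and Csf3 in macrophage/monocyte-like cells stands in the sub-clusters led by Ednrb and Cd163 (33.6, 28.4 and 26.8) and by Vcam1 and Il10 (20.1, 17.7 and 27.6).

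Csf1r encodes the receptor of both CSF1 and IL-34. In macrophage/monocyte-like cells its level was 687 CPM (681 to 692) in the young PBS library, 737 (732 to 743) in the old PBS library and 610 (606 to 615) in the old rMETRNL library, so the libraries stood in the order old PBS, young PBS, old rMETRNL. A UMI was found in 95.02%, 95.1% and 94.2% of these cells, and in 69.8%, 72.8% and 66.7% after thinning to 2000 UMIs, which left out 110, 195 and 169 cells. MuSC/myoblast-like cells, which should lack the receptor, stood at 0%, 1.72% and 0.810% after thinning, where 0 of 252 cells allows up to 1.19%. Dendritic-like cells had 66.03, 101 and 66.3 CPM. In FAP-like cells Csf1r was at 0.779%, 0.820% and 0.967% of its macrophage level, within the range of the 8 macrophage genes used for free RNA (0.549% to 1.05%), so no expression is read from it there. In endothelial-like cells it was at 0.853%, 1.64% and 1.44%, again within their range (0.621% to 2.78%).

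Among the 10 macrophage/monocyte sub-clusters with a name, Csf1r was highest in those led by Ednrb and Cd163 (934, 994 and 851) and by Vcam1 and Il10 (920, 964 and 863). It was lowest in those led by Cd209a and Klrd1 (341, 327 and 269) and by the cell cycle genes Hist1h1b and Top2a (416, 418 and 412). The gene thus differed more between sub-clusters than between libraries. The largest sub-cluster also differed between libraries: it was led by Hes1 and Hspa1a in young PBS (15.9% of the class), by Vcam1 and Il10 in old PBS (26.7%) and by Spp1 and Mfge8 in old rMETRNL (20.6%). Csf1r was lower in old rMETRNL than in old PBS in 10 of the 10, and 9 of these intervals lay below 1.

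The GM-CSF receptor alpha chain, Csf2ra, was at like levels in macrophage/monocyte-like and dendritic-like cells. The first had 152, 170 and 164 CPM and the second 152, 156 and 171, with overlapping intervals in each of the 3 libraries. Among the 10 macrophage/monocyte sub-clusters with a name, the highest levels were in the one led by the monocyte genes Ly6c2 and Plac8, at 237, 269 and 261. The one led by Ednrb and Cd163 was the lowest in young PBS and old rMETRNL, at 108, 122 and 118. FAP-like cells had 379, 190 and 328 Csf2ra UMIs, which is 5.54%, 3.71% and 4.51% of the macrophage level. This was above the highest of the 8 macrophage genes used for free RNA (1.05%), and MuSC/myoblast-like cells had 3.59%, 3.33% and 2.57% of that level. The source of these UMIs was not tested.

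Csf2rb and Csf2rb2, the beta chains, were both higher in old PBS than in the other libraries. In macrophage/monocyte-like cells Csf2rb stood at 163 CPM (161 to 166) in the young PBS library, 303 (300 to 307) in the old PBS library and 161 (158 to 163) in the old rMETRNL library. The young PBS and old rMETRNL intervals overlapped, and old PBS lay far above both. Csf2rb2 had the same order, with 36.8 (35.6 to 38.1), 67.2 (65.4 to 68.9) and 37.6 (36.5 to 38.8). After thinning, 25.6%, 37.4% and 23.7% of macrophage/monocyte-like cells had a Csf2rb UMI, and no MuSC/myoblast-like cell did. For Csf2rb2 the shares were 6.84%, 11.1% and 6.78%. Without thinning they were 69.5%, 78.4% and 69.5% for Csf2rb and 34.6%, 49.5% and 35.8% for Csf2rb2.

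Dendritic-like cells had the highest Csf2rb level of the 9 classes, at 506, 659 and 572 CPM, and old PBS was again the highest library. Endothelial-like cells followed macrophages, with 66.2, 114 and 87.7. Csf2rb2 was highest in dendritic-like cells too, at 86.0, 109 and 81.4. Its endothelial level was 42.8, 80.0 and 48.0, which is 116%, 119% and 127% of the macrophage level, where the macrophage genes used for free RNA had medians of 1.01% to 1.71%. The endothelial sub-cluster led by Selp and Ackr1, which carried Csf3, was also the highest in Csf2rb2, with 138, 249 and 148, and in Csf2rb, with 189, 234 and 219. FAP-like cells had 61, 174 and 76 UMIs of Csf2rb2, and 43.1% of the 174 in old PBS were in 5 cells.

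Csf3r, the G-CSF receptor, was at 50.9 CPM (49.4 to 52.3) in macrophage/monocyte-like cells of the young PBS library, 55.6 (54.1 to 57.2) in those of old PBS and 45.0 (43.7 to 46.3) in those of old rMETRNL. The intervals did not overlap, and the order was that of Csf1r. Outside this class it was near 0 in the 9 classes, with at most 26 UMIs in any class and library. The small neutrophil-like class had 29, 47 and 55 UMIs, or 1326, 1203 and 775 CPM. A Csf3r UMI was found in 46.8%, 51.9% and 44.7% of macrophage/monocyte-like cells, and in 10.5%, 11.1% and 8.90% after thinning.

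Flt3 marked dendritic-like cells, at 113 CPM (103 to 124), 110 (98.8 to 121) and 88.2 (79.8 to 97.3). After thinning, 22.7%, 20.1% and 14.5% of these cells had a Flt3 UMI, and the intervals of old PBS and old rMETRNL overlapped for the share (15.7% to 25.2% and 11.3% to 18.2%) but not for the level. The sub-cluster led by Apod and Cd209d was high, at 208, 246 and 142, and the one led by Mmp12 and Retnla was at 0, 0 and 6.04. The latter stayed in the class although 0 of its leading genes were dendritic markers. Macrophage/monocyte-like cells had 3.93, 2.06 and 3.18. The sub-cluster led by Cd209a and Klrd1 was 7.56%, 2.16% and 6.63% of the class, and the Flt3 level inside it was 49.7, 56.1 and 45.4.

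**Figure D3:**
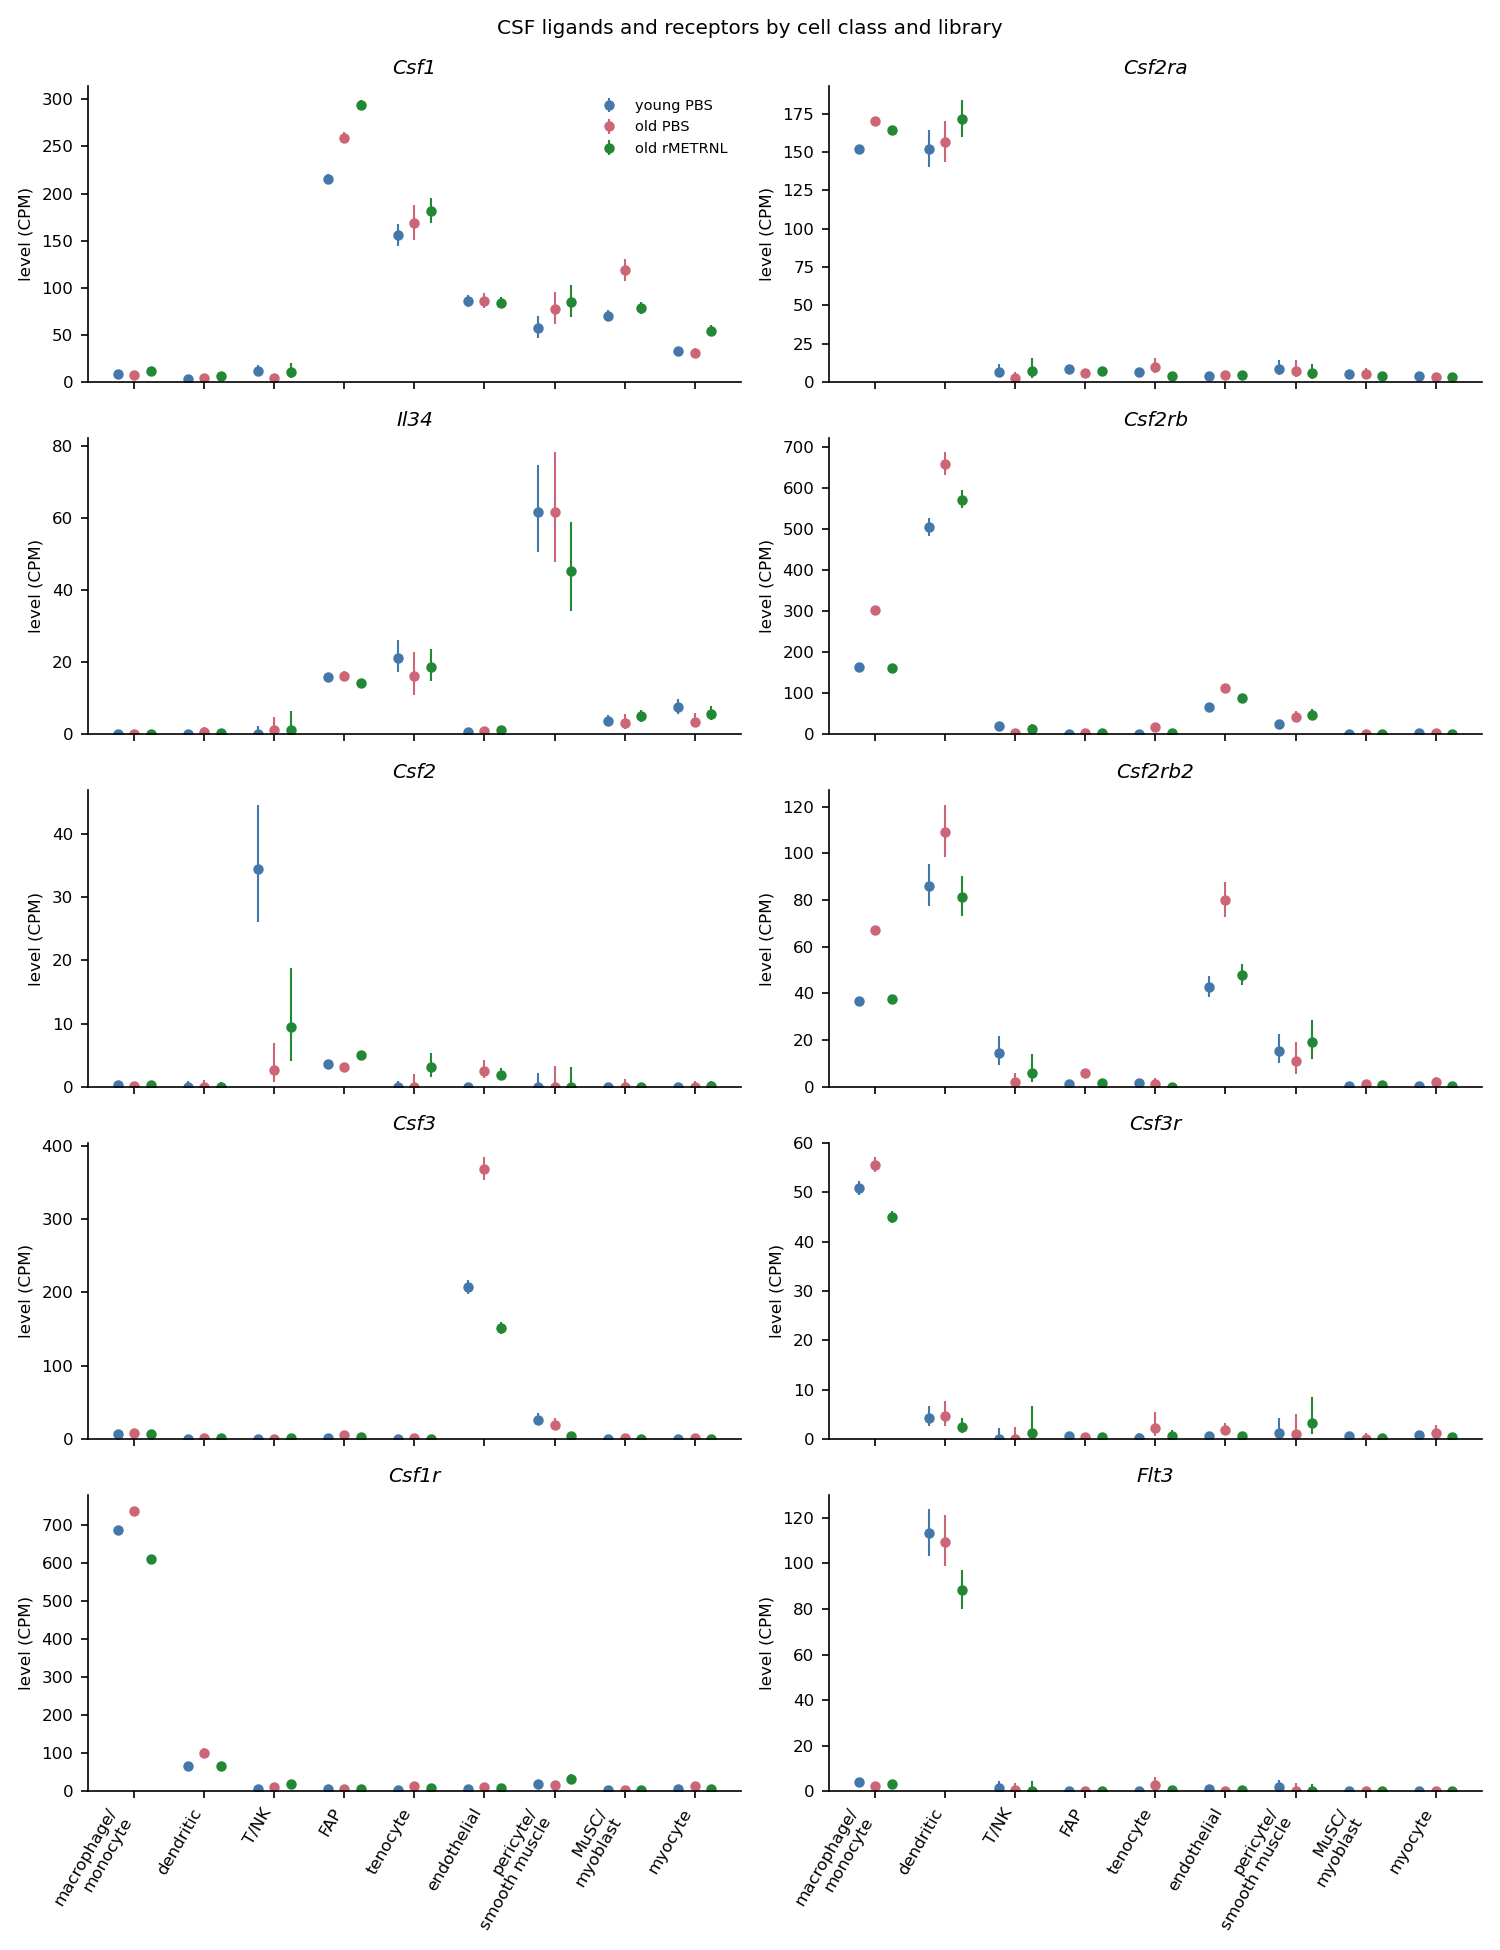
Level of each of the 10 genes (CPM, vertical axis) in the 9 cell classes (horizontal axis), with 1 point for each library and exact 95% counting intervals. Csf1r and Csf3r stand in macrophage/monocyte-like cells, Csf2ra in these and in dendritic-like cells alike, Flt3 in dendritic-like cells, Csf1 in FAP-like cells and Csf3 in endothelial-like cells, and the old PBS points of Csf2rb (303) and Csf2rb2 (67.2) lie above the other 2 libraries in macrophage/monocyte-like cells.

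Age was compared first. Of 40 gene by class pairs with at least 50 UMIs over the 2 libraries, 13 were at least 1.5-fold higher in old PBS and 3 at least 1.5-fold lower. Over all genes and the 9 classes, 7.19% of 85233 pairs were that much higher and 8.01% that much lower. The higher pairs were mostly beta chains and Csf3. Csf2rb was 1.86 times (1.82 to 1.90) as high in macrophage/monocyte-like cells, 2.05 times (1.53 to 2.77) in FAP-like, 1.72 times (1.54 to 1.93) in endothelial-like and 1.69 times (1.10 to 2.60) in pericyte/smooth muscle-like cells. The pericyte/smooth muscle-like value rested on 45 and 48 UMIs, in 19 and 21 cells. Csf2rb2 was 1.82 times (1.75 to 1.90) as high in macrophage/monocyte-like, 1.87 times (1.62 to 2.15) in endothelial-like and 4.27 times (3.17 to 5.81) in FAP-like cells. By the mean of per-cell levels the endothelial values were 1.28 for Csf2rb and 1.34 for Csf2rb2, no longer past 1.5-fold. In FAP-like cells Csf2rb had 81 and 111 UMIs, or 1.10% and 1.22% of its macrophage level, just above the highest of the free RNA genes (0.942% and 1.05%), whose part in that ratio was not tested. Csf3 was 1.78 times (1.67 to 1.89) as high in endothelial-like cells and 5.53 times (3.93 to 7.94) in FAP-like cells. The mean of per-cell levels gave 0.899 in endothelial-like cells. In FAP-like cells the UMIs lay in 17 young PBS and 27 old PBS cells, with 72.1% and 83.0% in the top 5. The counting interval does not cover this spread between cells. Csf2ra, which pairs with Csf2rb in the GM-CSF receptor, was only 1.12 times (1.10 to 1.15) as high in macrophage/monocyte-like cells.

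The other higher pairs were Csf1 in MuSC/myoblast-like cells, at 1.68 times (1.47 to 1.92) but at 1.05 times under a stricter cell filter (1000 genes, below 5% mitochondrial UMIs), and Csf1r in dendritic-like, endothelial-like and myocyte-like cells, at 1.53, 2.07 and 3.16 times. With clusters drawn more coarsely (resolution 0.4) the dendritic value of Csf1r was 0.995, and 2 of 11 alternatives kept it past 1.5-fold. The endothelial and myocyte values of Csf1r moved with the free RNA genes, whose median in myocyte-like cells was 0.872% of the macrophage level in young PBS and 2.06% in old PBS, and their part in the result was not tested. The 3 lower pairs were Csf2 in T/NK-like cells (0.0785, 0.0207 to 0.212), Il34 in myocyte-like cells (0.472, 0.247 to 0.851) and Flt3 in macrophage/monocyte-like cells (0.523, 0.435 to 0.627). With the macrophage sub-clusters weighted as in young PBS, the Flt3 ratio was 1.05. For CSF1 signalling, Csf1r in macrophage/monocyte-like cells had an age ratio of 1.07 (1.06 to 1.09) and Csf1 in FAP-like cells one of 1.20 (1.16 to 1.24).

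For treatment, 39 pairs were counted, and 5 were at least 1.5-fold higher and 10 at least 1.5-fold lower in old rMETRNL than in old PBS, where 6.15% and 5.22% of 83562 pairs over all genes were. By the mean of per-cell levels the split was 6 higher and 7 lower for treatment, and 10 higher and 6 lower for age. The lower pairs again held both beta chains and Csf3. Csf2rb was at 0.530 (0.520 to 0.540) of its old PBS level in macrophage/monocyte-like cells. Csf2rb2 was at 0.561 (0.538 to 0.584) there, at 0.600 (0.526 to 0.684) in endothelial-like and at 0.297 (0.224 to 0.391) in FAP-like cells, and the endothelial value was 0.692 by the mean of per-cell levels. Csf3 was at 0.409 (0.383 to 0.438) in endothelial-like cells, or 0.735 by the mean of per-cell levels, and 0.492 (0.384 to 0.630) in FAP-like cells. In FAP-like cells the top 5 cells held 83.0% of its UMIs in old PBS and 73.0% in old rMETRNL. The other lower pairs were Csf1 in MuSC/myoblast-like cells at 0.661 (1.05 under the stricter cell filter, and past 1.5-fold in 4 of 10 alternatives) and Csf1r in dendritic-like, tenocyte-like and myocyte-like cells at 0.656, 0.613 and 0.486. The dendritic value was 0.808 with sub-clusters weighted as in young PBS, and 5 of 11 alternatives kept it past 1.5-fold. With doublet calls kept, the tenocyte value of Csf1r was 1.02.

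The higher pairs were Csf1 in myocyte-like cells at 1.75, Il34 there at 1.61, Csf1r in pericyte/smooth muscle-like cells at 1.97, Csf2 in FAP-like cells at 1.62 and Flt3 in macrophage/monocyte-like cells at 1.55 (0.837 with sub-clusters weighted as in young PBS). In the myocyte-like class, a cluster led by the fibre genes Ckm, Myl1 and Tnnc2 held 34, 443 and 132 cells of a median of 2185 UMIs, and the Csf1 ratio ranged from 1.29 to 28.0 over the alternatives tried. A sub-cluster of the class led by the histone genes Hist1h1b and Hist1h2ap held 61, 38 and 81 cells of a median of 46997.5 UMIs. It had 0 myocyte markers among its leading genes, and its part in the ratios was not tested. The counting intervals of Il34 in myocyte-like cells (0.860 to 3.17) and of Csf1r in tenocyte-like cells (0.352 to 1.08) held 1. Csf1 in FAP-like cells was 1.13 times (1.10 to 1.17) as high and Csf1r in macrophage/monocyte-like cells 0.828 times (0.819 to 0.837). Csf1 in macrophage/monocyte-like cells themselves, low as it was, was 1.47 times (1.34 to 1.62) as high, or 1.17 times with sub-clusters weighted as in young PBS.

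Old rMETRNL was also set against young PBS, the pair of libraries that shares neither age nor treatment. Of 44 pairs, 5 were at least 1.5-fold higher and 2 at least 1.5-fold lower, beside 4.22% and 3.78% of 87458 pairs over all genes. The higher pairs were Csf3 in FAP-like cells at 2.72 (1.90 to 3.96), Csf2rb and Csf1r in pericyte/smooth muscle-like cells at 1.83 (1.21 to 2.76) and 1.76 (1.07 to 2.90), and Csf1 and Csf1r in myocyte-like cells at 1.66 (1.40 to 1.98) and 1.54 (0.939 to 2.54). In FAP-like cells the top 5 cells held 72.1% of Csf3 UMIs in young PBS and 73.0% in old rMETRNL. In pericyte/smooth muscle-like cells of old rMETRNL the top 5 held 75.4% of Csf2rb and 71.8% of Csf1r UMIs. A Csf2rb UMI was found in 16.5% of pericyte/smooth muscle-like cells in young PBS and 11.5% in old rMETRNL. The lower pairs were Csf2 in T/NK-like cells at 0.276 (0.114 to 0.581) and Csf3 in pericyte/smooth muscle-like cells at 0.157 (0.0486 to 0.393), which rested on 5 and 46 UMIs in 2 and 3 cells. For the beta chains in macrophage/monocyte-like cells the ratios were 0.984 (0.963 to 1.01) and 1.02 (0.976 to 1.07), and both intervals held 1. Csf3 in endothelial-like cells was at 0.728 (0.679 to 0.780), Csf1 in FAP-like cells at 1.36 (1.33 to 1.40) and Csf1r in macrophage/monocyte-like cells at 0.889 (0.879 to 0.899), each with an interval away from 1.

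**Figure D4:**
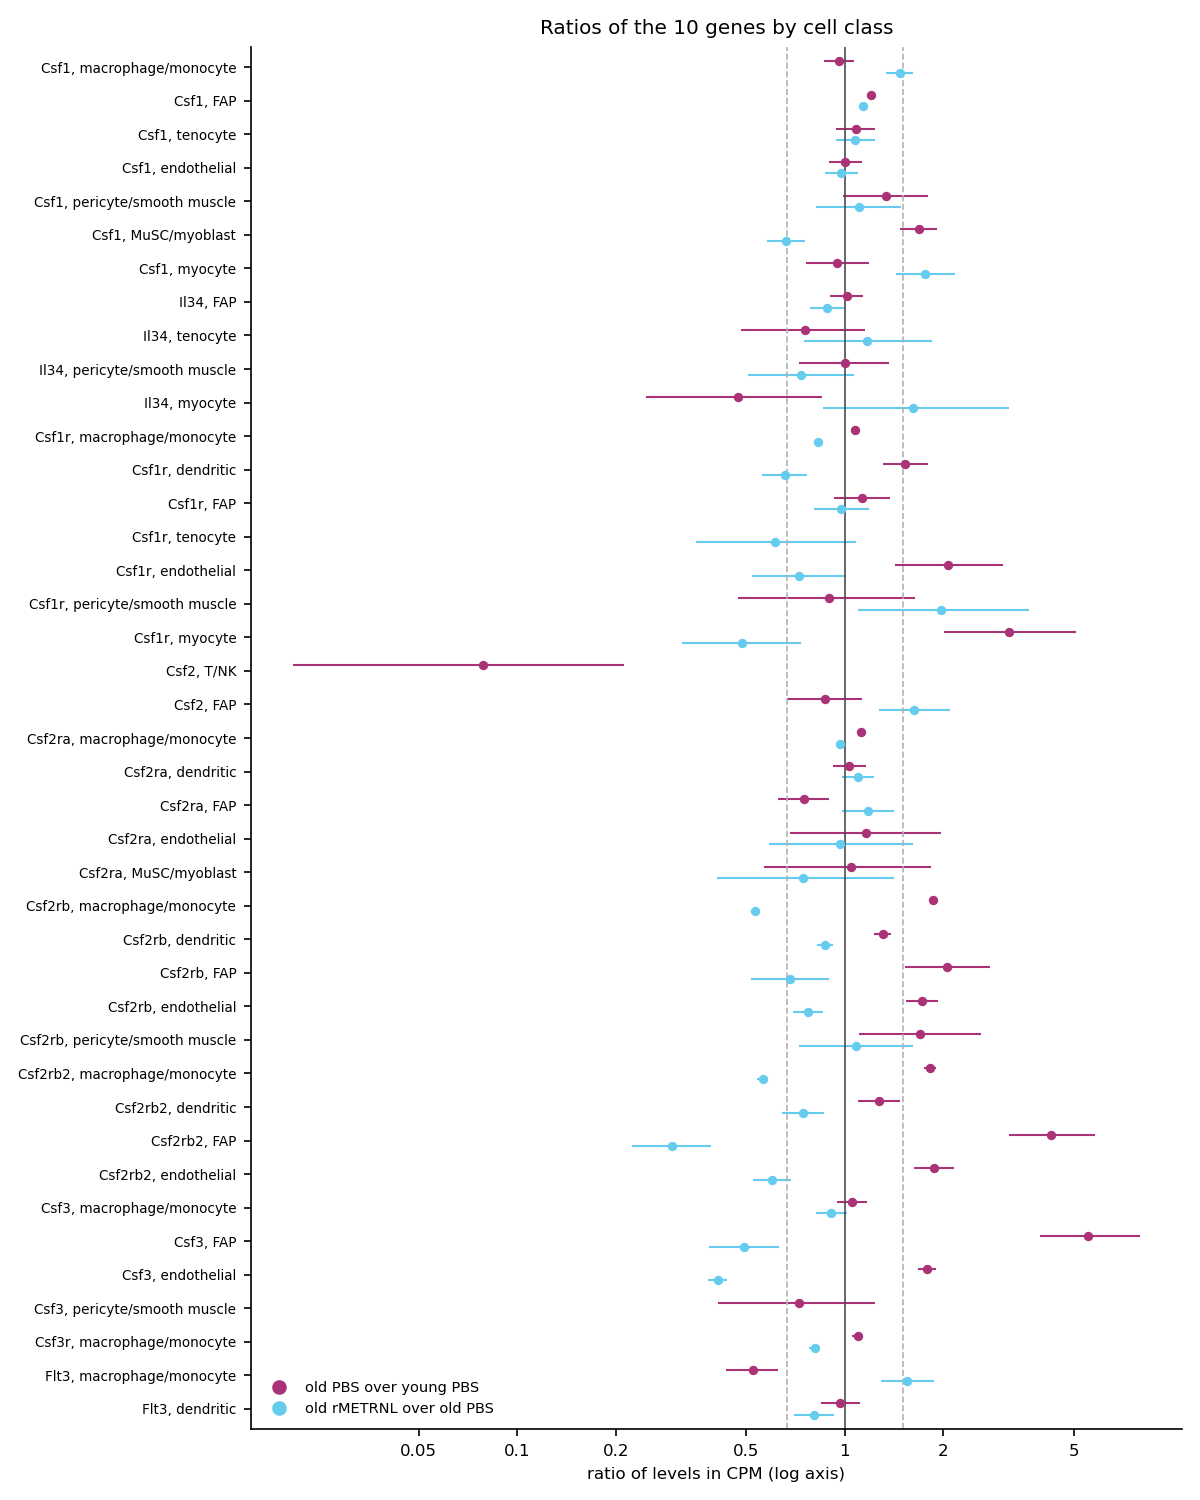
Age ratio and treatment ratio (ratio of levels, log axis) of each gene by class pair with at least 50 UMIs over the 2 libraries, with exact 95% counting intervals. For Csf2rb and Csf2rb2 the age points of macrophage/monocyte-like cells lie at 1.86 and 1.82 and the treatment points at 0.530 and 0.561; both ratios use the old PBS library.

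Part of the beta chain ratios went with the make-up of the libraries. Over all kept cells the age ratio was 2.06 for Csf2rb and 2.05 for Csf2rb2, and with the classes weighted as in young PBS it was 1.76 and 1.79. Within macrophage/monocyte-like cells, weighting the sub-clusters as in young PBS gave an age ratio of 1.56 for both genes, and a treatment ratio of 0.638 for Csf2rb and 0.654 for Csf2rb2. Csf2rb was higher in old PBS than in young PBS in 10 of 10 sub-clusters, with ratios of 1.09 to 1.82 and a median of 1.53, and 9 of the 10 intervals lay above 1. The exception was the sub-cluster led by Hes1 and Cxcl9, at 1.09 (0.940 to 1.25), where the treatment ratio was 1.003 (0.859 to 1.17). Csf2rb2 was higher in 10 of 10 (1.40 to 2.28), with all 10 intervals above 1, and lower in old rMETRNL than in old PBS in 10 of 10 (0.490 to 0.812), with 7 intervals below 1.

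The monocyte sub-cluster led by Ly6c2 and Plac8 had the highest Csf2rb of the 10, with 432 CPM in the young PBS library, 626 in the old PBS library and 367 in the old rMETRNL library. The one led by Lyve1 and Ccl8, genes of resident-type macrophages, had the lowest in young PBS and old rMETRNL, with 66.3, 110 and 59.9. A sub-cluster led by Retnla, F10 and Mmp12 was kept out of the class because its leading genes held a marker of another class (Il7r, of T/NK cells) and none of macrophages. It had 381, 676 and 574 cells, Csf2rb at 360, 486 and 373 and Csf2ra at 249, 264 and 270. With such sub-clusters kept in the class, Csf2rb in macrophage/monocyte-like cells had ratios of 1.87 by age and 0.549 by treatment.

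**Figure D5:**
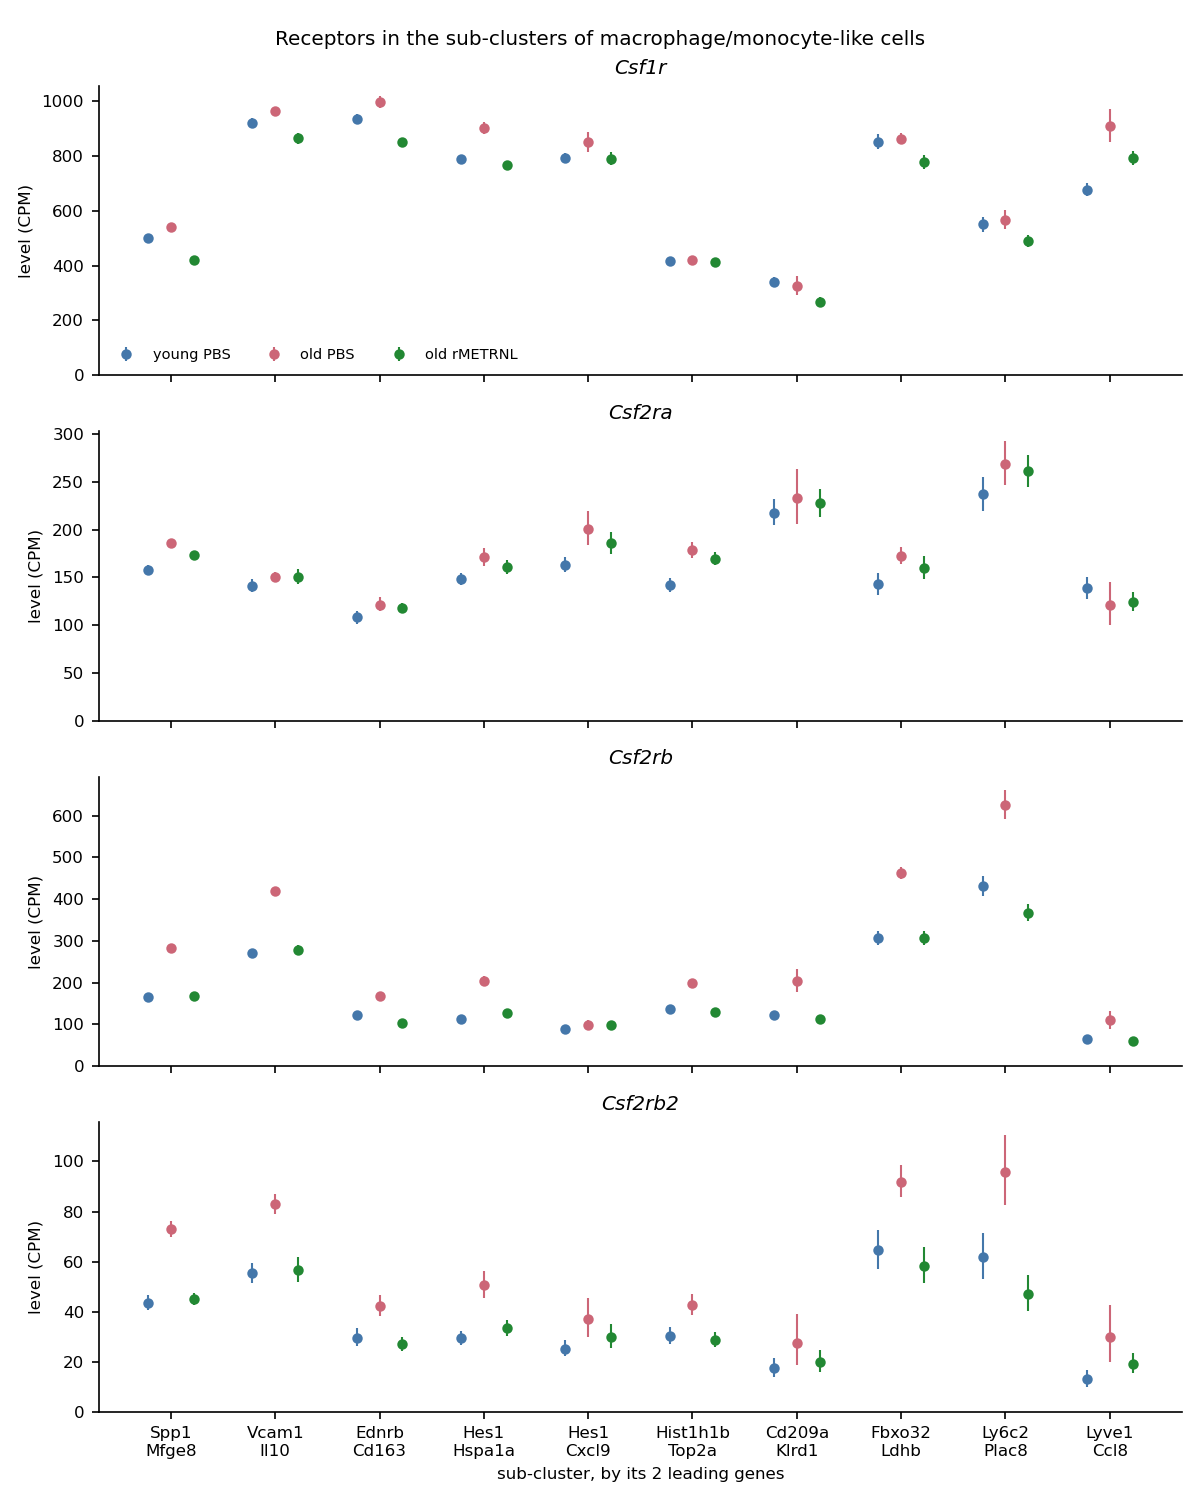
Levels (CPM, vertical axis) of receptors in the macrophage/monocyte-like sub-clusters, each named by its leading genes (horizontal axis), with 1 point for each library and exact 95% counting intervals. The old PBS point of Csf2rb lies above the young PBS point in 10 of 10 sub-clusters (ratios 1.09 to 1.82), and both Csf1r and Csf2rb differ more between sub-clusters than between libraries.

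Csf1 in FAP-like cells was also compared by sub-cluster. In old rMETRNL it was higher than in young PBS in 9 of the 9 that had enough UMIs (1.17 to 1.67, 8 intervals above 1). Against young PBS, old PBS was higher in 6 and lower in 3. The age ratio was highest (1.51) in the Ptx3 and Chl1 sub-cluster, with 225, 340 and 364 CPM. In the sub-cluster led by Il11 and Slc16a3 the values were 239, 207 and 297, so old PBS was the lowest there. Among the dendritic-like sub-clusters, Csf2rb in the one led by Xcr1 was 626, 1004 and 592, and weighting the sub-clusters as in young PBS brought the age ratio of Csf1r from 1.53 to 1.09.

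Pairs of receptor chains in the same cell were counted beside the share over all cells of the class. Of the macrophage/monocyte-like cells with a Csf2ra UMI, 72.6% in the young PBS library, 83.9% in the old PBS library and 72.5% in the old rMETRNL library also had a Csf2rb UMI, near the 69.5%, 78.4% and 69.5% of all such cells. Of those with a Csf2rb2 UMI, 82.6%, 91.2% and 84.3% also had Csf2rb, above those shares. Csf1r was found in 98.5%, 99.2% and 98.5% of Csf3r positive cells, against 95.02%, 95.1% and 94.2% of all. In endothelial-like cells 6.60%, 5.35% and 5.34% of Csf2rb positive cells had the alpha chain, against 5.57%, 2.90% and 4.64% of all. In the same cells 59.4%, 49.4% and 50.9% had Csf2rb2, against 29.7%, 24.2% and 24.7% of all. Of the dendritic-like cells with Flt3, 24.9%, 27.0% and 21.5% also had Csf1r, against 30.3%, 32.4% and 29.5% of all. These shares rise with depth and were not thinned.

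Genes of the same pathway were described from lists that were chosen with earlier results of these data known. Related ligands and receptors (9 genes, among them Kitl, Kit and Flt3l) had 1 of 5 counted genes past 1.5-fold in macrophage/monocyte-like cells by age: Kit, the stem cell factor receptor, went from 2.69 to 1.13 CPM (0.419). Kit was at 69.6 and 75.9 CPM in dendritic-like cells of the same libraries. In FAP-like cells 1 of 4 was higher by age, beside 6.44% of all genes higher and 6.32% lower: Kitl, the ligand of Kit, stood at 52.8 CPM in young PBS and 90.1 in old PBS (1.71). Of 22 receptor signalling genes such as Jak2, Stat5a and Syk, 0 of 22 were past 1.5-fold in macrophage/monocyte-like cells by age or by treatment, where 6.11% and 6.28% of 13562 genes were higher and lower by age and 5.17% and 3.87% of 13706 by treatment. Their median log2 ratio was 0.07 by age and -0.08 by treatment, against -0.00495 and 0.05 over all genes.

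Of 13 genes known to respond to these cytokines, 1 was higher and 2 lower by age in macrophage/monocyte-like cells, beside 6.11% and 6.28% of all genes, and 2 were higher and 1 lower by treatment, beside 5.17% and 3.87%. Cish, a STAT5 target that restrains cytokine signalling, went from 6.37 to 9.80 CPM (1.54), and was at 0.644 of old PBS in old rMETRNL. The cyclins Ccnd1 and Ccnd2 were at 0.585 and 0.562 by age and at 2.23 and 2.20 by treatment. Ccnd2 is among the leading genes of the sub-cluster led by Cd209a and Klrd1, whose share of the class (7.56%, 2.16% and 6.63%) moved with these values, and its part in them was not tested. In endothelial-like cells 5 of 13 were at least 1.5-fold higher by age and none lower, where 7.34% and 9.25% of 10316 genes were. Socs1 went from 34.7 to 93.7 (2.70), Egr1 from 579 to 1168 (2.02) and Socs3 from 411 to 772 (1.88). The make-up of the class moved with these values. The endothelial sub-cluster led by Timp4 and Egr1 was 9.46%, 21.6% and 15.3% of the class in the 3 libraries, and the one led by Nabp1 and Cyp26b1, with Socs1 among its leading genes, was 4.56%, 23.2% and 14.4%, and their part in the ratios was not tested. By treatment 4 of the 13 were lower there and 1 higher, beside 5.80% and 6.09% of 10439 genes, with Socs1 at 0.478, Cish at 0.510, Egr2 at 0.543 and Ccnd1 at 1.71. The median log2 ratio of the list in endothelial-like cells was 0.48 by age and -0.47 by treatment, against -0.07 and 0.06 over all genes. By age 7 of 12 were higher and 2 lower in pericyte/smooth muscle-like cells, with a median log2 ratio of 0.68 against -0.03 over all genes. In myocyte-like cells 4 of 11 were higher and 1 lower. Over all genes and the 9 classes, 7.19% of pairs were higher by age and 8.01% lower.

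Of 10 myeloid transcription factors, Irf4 (1.84) and Klf4 (1.51) were past 1.5-fold by age in macrophage/monocyte-like cells, both higher, beside 6.11% of all genes higher and 6.28% lower, and none of the 9 counted was by treatment. In endothelial-like cells 5 of 7 were higher by age, beside 7.34% of all genes, led by Runx1 (2.76), Cebpa (2.21) and Spi1 (2.05). The UMIs behind these 3 were few (136, 92 and 65 over both libraries), while the other 2, Klf4 (1.79) and Cebpb (1.53), had 4597 and 2407. By treatment 2 of the 7 were lower in endothelial-like cells and 0 higher, beside 5.80% and 6.09% of all genes. Over all genes, 6.44% were higher by age in FAP-like cells and 7.19% of pairs over the 9 classes. Shares for the other classes named next were not taken singly. By age the counts outside the myeloid lineage were 4 of 5 higher in pericyte/smooth muscle-like, 5 of 7 in myocyte-like, 3 of 8 in FAP-like, 1 of 5 in tenocyte-like, 1 of 5 in T/NK-like and 0 of 6 in MuSC/myoblast-like cells. Tyrobp, one of the free RNA genes, was 2.11 times as high in the same cells, and the part of free macrophage RNA in these values was not tested. Of the receptor signalling genes in endothelial-like cells, 2 of 18 were higher by age and 2 of 18 lower by treatment, beside 7.34% and 5.80% of all genes. Among these, Stat5a went from 8.04 to 16.2 (2.02), and was at 0.414 of old PBS in old rMETRNL.

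The genes most like the members across the 9 classes and 3 libraries (27 points, Pearson r of log2 levels plus 1, 13341 genes) were mostly those of the class a member marked. Csf1 was most like Sulf1, a sulfatase of the matrix (r = 0.977), and Csf1r most like Lyz2, the lysozyme gene (0.993). Csf2ra was most like March1 (0.978), Csf2rb like Shtn1 (0.968) and then Csf2rb2 (0.949), Csf3r like Fcna (0.974) and Flt3 like Klra17 (0.982). Csf3 (Adam10, 0.920) and Csf2 (Tnfsf8, 0.816) had looser neighbours. The points of 1 library share its depth and free RNA, and the points of 1 class are the same kind of cell, so these values are descriptions.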

How the data were processed

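Droplet 3′ single-cell RNA-seq libraries were made from pooled muscle digests of the 3 groups of mice, with 1 library a group. The authors deposited filtered matrices of raw UMI counts for 12168, 12568 and 14012 barcodes with 218059089, 179295668 and 228966697 UMIs. The submitters' processing notes list Cell Ranger 3.1.0 and 5.0.0 and build mm10, and the study's methods name another version, so the version behind each matrix is not known. Free RNA was not removed from these counts here, and such pipelines leave out reads that fit several genes equally well, which bears on the paralogs Csf2rb and Csf2rb2.

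A barcode was kept where it had 500 genes or more and less than 10% mitochondrial UMIs. The automatic threshold of Scrublet (in scanpy 1.11.5) marked only 1, 1 and 2 cells, so the highest scores were removed at 0.8% for each 1000 barcodes (1179, 1261 and 1559 cells). The libraries were clustered together on 2000 variable genes without the 10 members (30 principal components, 20 neighbours, Leiden resolution 0.8), and clusters and sub-clusters were named from marker lists. Sub-clusters were left without a class (736, 1088 and 1119 cells) where their leading genes held more markers of another class than of their own, or where they were shallow with no leading marker. They were also left out where markers of another class led them within their own class and enough of its markers were raised there. An endothelial sub-cluster led by the fibre genes Tnnc2 and Ckm (135 cells, median 1433 UMIs) stayed in its class under these rules. Raw UMIs were summed per class and library. Levels have exact Poisson intervals, ratios exact binomial ones and shares of cells Clopper-Pearson ones, all at 95%. A pair was counted with at least 50 UMIs over both libraries and called past 1.5-fold. Shares were taken after thinning each cell to 2000 UMIs, which left out 243, 743 and 626 cells.

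With 1 library a group no test between groups was made. The calculations were tested on simulated data. All 10 members were described. Genes of the other lists were named where they had 50 UMIs and were past 1.5-fold, at most 3 in each direction, and alike genes were the 3 with the highest correlation. The alike genes of Il34 are not reported here. The members, lists and markers were chosen with earlier results of these data known. Alternatives were other cell filters, doublets kept, other resolutions, members among the clustering genes, means of per-cell levels, another scaling, other minimums and folds, and 3 chosen after seeing the data: unnamed sub-clusters kept, cells under 2000 UMIs left out, and sub-clusters weighted as in young PBS.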

Additional observations from a re-analysis of the deposited data

Results flagged for a closer look

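Csf1 moved in opposite directions between old PBS and old rMETRNL in 2 muscle classes. In MuSC/myoblast-like cells the treatment ratio was 0.661 (0.580 to 0.754), from 118 to 78.3 CPM, and in myocyte-like cells it was 1.75 (1.43 to 2.16), from 31.0 to 54.4. The difference between the classes was not tested. Under the stricter cell filter the MuSC/myoblast ratio was 1.05, so the directions were then no longer opposite, and the myocyte ratio ranged from 1.29 to 28.0 over the alternatives tried. The median depth of the myocyte-like class was 2402 UMIs in old PBS and 6127 in old rMETRNL.

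Csf1r was lower in old rMETRNL in dendritic-like cells, with a treatment ratio of 0.656 (0.560 to 0.768; 0.808 with sub-clusters weighted as in young PBS), and in myocyte-like cells, with 0.486 (0.319 to 0.735), but higher in pericyte/smooth muscle-like cells, with 1.97 (1.10 to 3.66). These differences were not tested. The pericyte and myocyte counts were small (18 and 39, and 58 and 42 UMIs), and are given beside the macrophage genes used for free RNA. Csf1r was at 2.22% and 5.27% of its macrophage level in pericyte/smooth muscle-like cells, where the median of those genes was 2.45% and 3.11% and their highest 2.84% and 6.95%, and at 1.88% and 1.10% in myocyte-like cells, where it was 2.06% and 0.886%.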

How the results depend on the processing

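No paired analysis was possible because each group was 1 library, and for the same reason no replicate could be left out. Of 31 ratios past 1.5-fold, 15 stayed past it in every alternative tried, among them Csf2rb and Csf2rb2 in macrophage/monocyte-like cells for age and for treatment. Over the 75 ratios printed outside the 4 leading ones, 682 of 796 alternative values lay inside the counting interval, 106 moved out of it and 8, all of ratios past 1.5-fold, turned direction. Ratios nearer to 1 that crossed it were not counted as turned, such as Csf1 in myocyte-like cells by age (0.949, and 1.23 with doublet calls kept). That ratio was also 0.167 with the stricter cell filter and 0.347 by the mean of per-cell levels, both past 1.5-fold. Where a value moved, the cause was not tested.

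The age count of 16 pairs became 26 of 59 with a minimum of 20 UMIs, 47 of 83 with no minimum and 7 at 2-fold, and the treatment count of 15 became 24 of 54, 48 of 84 and 4. For Csf1r in macrophage/monocyte-like cells the age and treatment ratios (1.07 and 0.828) were 1.01 and 0.860 with the stricter cell filter, 1.03 and 0.853 with the looser one, 1.04 and 0.843 with doublet calls kept, 1.05 and 0.843 at resolution 0.4, 1.04 and 0.845 at resolution 1.6, 1.04 and 0.849 with members among the clustering genes, 1.09 and 0.838 as a mean over cells, and 1.04 and 0.844 with unnamed sub-clusters kept. The treatment ratio was also 0.802 with median-ratio scaling and 0.870 with sub-clusters weighted as in young PBS. Csf1 in FAP-like cells (1.20 and 1.13) became 1.26 and 1.08 with the stricter filter and 1.12 and 1.19 with sub-clusters weighted as in young PBS.

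The direction turned for Csf3 in endothelial-like cells by age as a mean over cells (0.899) and for Csf1r in dendritic-like cells by age at resolution 0.4 (0.995). For Flt3 in macrophage/monocyte-like cells it turned with weighted sub-clusters (age 1.05, treatment 0.837) and, by treatment, with the stricter (0.856) and looser (0.773) filters. By treatment it also turned for Csf1r in tenocyte-like cells with doublet calls kept (1.02) and for Csf1 in MuSC/myoblast-like cells with the stricter filter (1.05). Of 78 shares of cells, 60 moved without thinning. Csf2, and Csf3 outside endothelial-like and macrophage/monocyte-like cells, rested on few cells, so depth limits what can be read from them.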

Other observations

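Il34 was also found in the small Schwann/glial-like class, which had 22, 66 and 47 cells in the young PBS, old PBS and old rMETRNL libraries. It had 17, 9 and 6 UMIs there, or 101, 31.9 and 28.5 CPM, so in young PBS its level was the highest of any class, with an interval of 58.9 to 162 that overlaps that of pericyte/smooth muscle-like cells.

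Kit in macrophage/monocyte-like cells stood at 2.69, 1.13 and 1.98 CPM, and Ccnd1 in the same cells at 55.3, 32.3 and 72.1, so both were lowest in old PBS, where Csf2rb and Csf2rb2 were highest. In dendritic-like cells Kit was at 69.6, 75.9 and 67.6 CPM. The macrophage/monocyte sub-cluster led by Cd209a and Klrd1 was 7.56%, 2.16% and 6.63% of its class, and its part in these values was not tested. Kitl in endothelial-like cells was at 525, 661 and 676. These values are descriptions of 1 library each.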
